A study of Mus musculus with 8 samples.

Results

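Fibronectin (Fn1) and 9 genes of matricellular proteins were followed in cultured mouse heart fibroblasts: periostin (Postn), SPARC (Sparc), osteopontin (Spp1), tenascin C (Tnc), tenascin X (Tnxb) and the thrombospondins Thbs1, Thbs2, Thbs3 and Thbs4. The 10 genes were taken by symbol from the 22274 genes of the table. Tnc was found by its Ensembl identifier, ENSMUSG00000028364, because its symbol is written there as TGFP. The cells were primary cardiac fibroblasts of the mouse, which lay down the collagen of the heart, and all 8 libraries came from cells given TGF-β, the cytokine that turns fibroblasts into contractile myofibroblasts. By the study's account, the libraries labelled GFP (4) are from cells given an empty vector and those labelled OEIRF7 (4) from cells given a virus for IRF7, an interferon regulatory factor. Reads of the viral gene were not examined. The study names an adenovirus for these cells, and its list of reagents gives an adenovirus with a CMV promoter and human IRF7. That list also gives an adeno-associated virus with a periostin promoter and mouse Irf7, and the study describes injecting a virus of this kind into mice. The design text of the series, in contrast, names an adeno-associated virus. GFP and OEIRF7 stand for these labels throughout. No strain, sex or age of the donor mice is given in the labels of these libraries.

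Matricellular proteins are secreted into the extracellular matrix but act mainly on cells and on other matrix proteins rather than as load-bearing fibres. Many of them are scarce in the healthy adult heart and rise where tissue is injured or remodelled. Fibronectin is a scaffold onto which fibroblasts lay collagen, periostin marks activated cardiac fibroblasts, and several of these proteins are induced by TGF-β or, like thrombospondin 1, help to release it from its latent form.

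Total counts lay between 24454801 and 28658826 per library. Mouse Irf7 fell from 118 ± 24.0 to 15.2 ± 0.822 CPM (counts scaled to a common library size, SD, n = 4), a log2 fold change of -2.96 (adjusted p = 7.7e-11 by edgeR). The counts of the mouse gene thus go against the label OEIRF7, and they do not check it if the virus carried the human gene. Every direction below is therefore one between libraries as labelled. All 10 fibroblast markers examined were expressed, with a summed level from 13454 to 13850 CPM in GFP and from 12765 to 13724 CPM in OEIRF7 libraries. Of these 10, 5 were lower (29.9% of all genes tested were) and 2 higher (29.0% were), and 3 did not pass the test (edgeR). Tcf21 was among the lower ones, at 58.3 CPM in GFP and 23.1 CPM in OEIRF7 libraries, and Pdgfra and Vim were higher. Of 8 cardiomyocyte markers, 7 had a mean below 10 counts. The other, Tnnt2, was lower, at 11.3 CPM in GFP and 7.78 CPM in OEIRF7 libraries (adjusted p = 0.00057 by edgeR). The summed levels of endothelial, mural and Schwann cell markers overlapped between the groups, though single markers differed. Of the endothelial markers, Kdr, Vwf and Emcn were higher, Cdh5 was lower, and Pecam1 and Tek did not pass the test (edgeR). Pdgfrb (1413 CPM in GFP and 1268 CPM in OEIRF7) made up most of the mural sum and was lower. Notch3 (41.4 and 13.6 CPM) was also lower, Cspg4 (22.4 and 63.3 CPM) and Rgs5 were higher, Abcc9 did not pass and Kcnj8 was not tested. The 6 epicardial markers summed to between 158 and 173 CPM in GFP and between 122 and 131 CPM in OEIRF7 libraries. Of these 6, Upk3b (51.8 and 20.8 CPM) and Tbx18 (72.6 and 59.3 CPM) were lower, Msln and Aldh1a2 were higher, and Upk1b and Wt1 did not pass the test (edgeR). In bulk RNA, fewer cells of a type and less RNA per cell cannot be told apart. The labels do not state whether the 4 libraries of a group came from separate cultures or animals, so p-values measure the spread between these libraries, which may be technical.

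The matricellular genes moved in both directions. Tnxb, Tnc, Spp1, Thbs4, Thbs1 and Thbs3 were higher in the libraries labelled OEIRF7, and Thbs2, Postn, Fn1 and Sparc were lower. All 10 passed the filter on low counts, and all 10 had an adjusted p under 0.05 (edgeR's quasi-likelihood test, Benjamini-Hochberg over the 13533 genes tested). The contrast was broad, however, since 58.9% of all genes tested were called, 29.0% higher and 29.9% lower. A log2 fold change past 1 in size was reached by 2 of the 10, Tnxb and Thbs2, against 8.56% of all genes. In all 10 the CPM ranges of the groups stayed apart, as in 53.8% of all genes. For each of the 10, the exact two-sided permutation test on log2 CPM therefore gave p = 0.0286, the smallest that 4 against 4 libraries allow. The median log2 fold change of the 10 was 0.40, beside 0.0015 over all genes tested. For each of the 10, OEIRF7 replicate 3 had either the highest or the lowest CPM of the OEIRF7 libraries. Without this library 6 of the 10 were still called higher and 4 lower (edgeR).

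**Figure D1:**
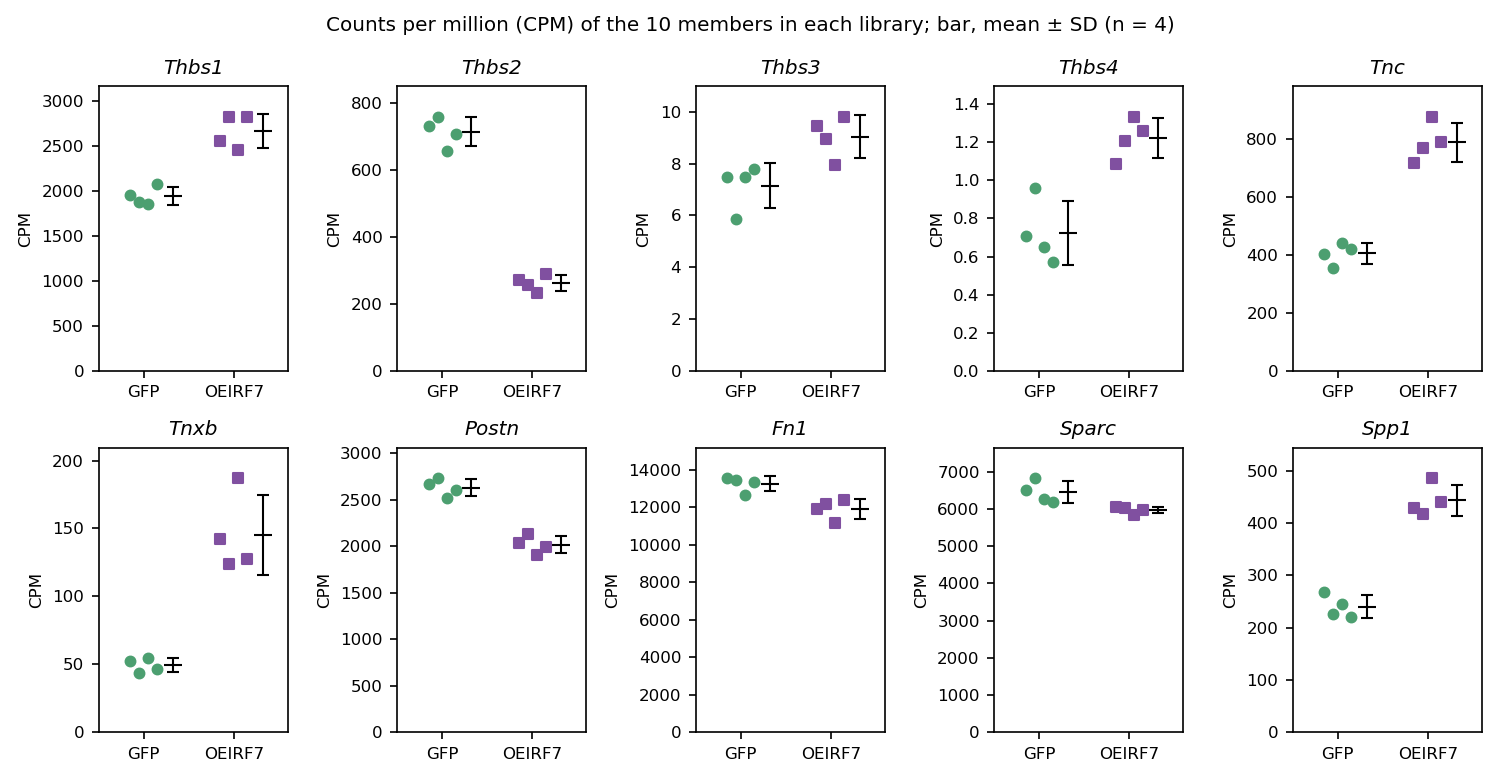
CPM of each of the 10 genes by library label, with 1 point per library (green circles, GFP; purple squares, OEIRF7) and the mean ± SD beside the points. No panel shows overlap between the groups, and the separation is widest for Thbs2 and Tnxb and narrowest for Sparc, Fn1, Thbs3 and Thbs4.

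**Figure D2:**
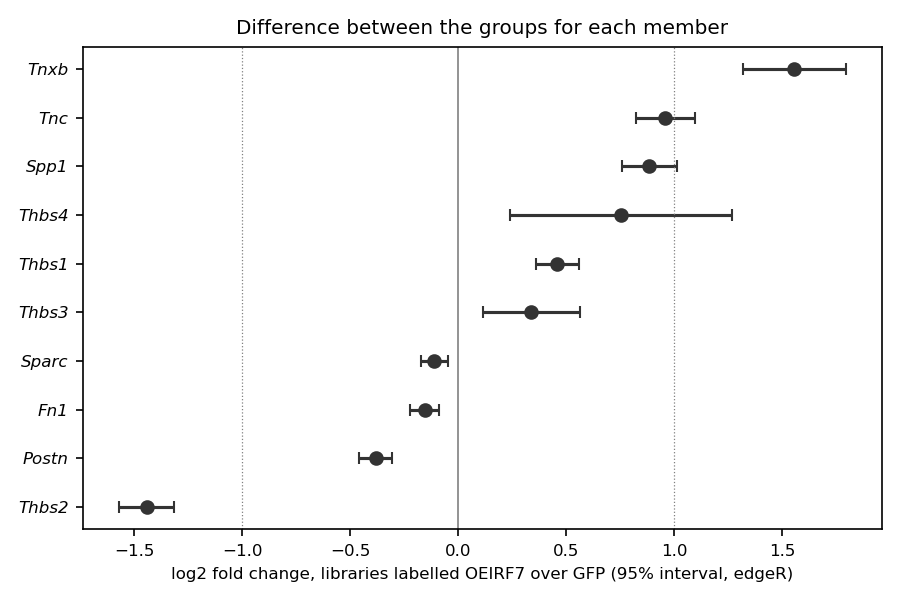
Log2 fold change of each gene between libraries labelled OEIRF7 and GFP with its 95% interval from edgeR; dotted lines mark a change of 1 in size. Tnxb (1.55) and Thbs2 (-1.44) lie past these lines, and the interval of Thbs4 is the widest.

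The thrombospondins are multimeric glycoproteins in 2 structural subgroups. Thbs1 and Thbs2 encode the trimeric forms, which carry the type 1 repeats that bind CD36 and restrain blood vessel growth, and Thbs3 and Thbs4 encode the pentameric forms, which lack these repeats. Within the trimeric subgroup the genes moved apart. Thbs2 (ENSMUSG00000023885) spans 14665500 to 14694235 on chromosome 17 of GRCm38, minus strand. Its levels were 731, 761, 658 and 709.6 CPM in GFP replicates 1 to 4 and 273, 256, 233 and 289.5 CPM in OEIRF7 replicates 1 to 4. The highest OEIRF7 library thus stood well below the lowest GFP library. The mean was 2.72-fold lower in OEIRF7 libraries, with a log2 fold change of -1.44 (95% interval -1.57 to -1.32, adjusted p = 7.7e-11 by edgeR).

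Thbs1, whose product activates latent TGF-β, rose instead. Thbs1 (ENSMUSG00000040152, chromosome 2, 118111876 to 118127133, plus strand) had 1948, 1879.6, 1849 and 2073 CPM in the GFP libraries and 2554, 2823, 2454 and 2814 CPM in the OEIRF7 libraries. The log2 fold change was 0.46 (95% interval 0.36 to 0.56, adjusted p = 8.1e-07 by edgeR), a rise of 1.37-fold. The counts of Thbs1 were 2.71 times those of Thbs2 in GFP libraries and 10.1 times those of Thbs2 in OEIRF7 libraries (geometric means of the ratio within each library).

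Thbs3 and Thbs4, the pentameric forms, were expressed at far lower levels. Thbs3 (ENSMUSG00000028047, chromosome 3, 89215180 to 89226837, plus strand) had 7.46, 5.85, 7.49 and 7.78 CPM in GFP libraries and 9.46, 8.96, 7.93 and 9.81 CPM in OEIRF7 libraries. GFP replicate 2 stood below the other GFP libraries and the lowest OEIRF7 library was close to the highest GFP library, and the log2 fold change of 0.34 had a standard error of 0.10 (adjusted p = 0.012 by edgeR). Mtx1, which encodes a mitochondrial import protein, covers the whole of Thbs3 on the opposite strand by gene span. Overlap of their exons was not examined. The study's methods name a stranded library kit, but the strand setting of the counting is not given in the sources used here. The reads of Thbs3 and Mtx1 thus cannot be told apart with certainty. Mtx1 itself did not pass the test, at 0.02 on the log2 scale (standard error 0.066, adjusted p = 0.78 by edgeR).

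Thbs4 (ENSMUSG00000021702, chromosome 13, 92751590 to 92794818, minus strand) encodes a form known from tendon and from the stressed heart. It rested on 19, 24, 16 and 15 counts in the GFP libraries and 28, 35, 34 and 31 counts in the OEIRF7 libraries. The log2 fold change of 0.75 had a wide 95% interval from 0.24 to 1.27 (adjusted p = 0.014 by edgeR). Without GFP replicate 4 the call was lost, with a log2 fold change of 0.65 and an adjusted p of 0.0502 by edgeR. Its level per length was 0.225 ± 0.0526 FPKM in GFP and 0.385 ± 0.0342 FPKM in OEIRF7 libraries (fragments per kilobase, scaled for depth; SD, n = 4).

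Both tenascins rose. Tenascin C is a large hexameric glycoprotein of injured and developing tissue that loosens cell adhesion to fibronectin, and tenascin X is the form of resting connective tissue that holds collagen fibrils together. Tnxb (ENSMUSG00000033327, chromosome 17, 34670535 to 34719815, plus strand) had 52.3, 43.7, 54.7 and 46.9 CPM in GFP replicates 1 to 4 and 142, 124, 187 and 128 CPM in OEIRF7 replicates 1 to 4. Replicate 3 of OEIRF7 was the highest, yet each of the other OEIRF7 libraries was also above every GFP library. The mean was 2.94-fold higher, with a log2 fold change of 1.55 (95% interval 1.32 to 1.79, adjusted p = 2.1e-08 by edgeR). This was the largest rise among the 10 genes.

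Tnc lies on the minus strand of chromosome 4 from 63959785 to 64047015. Its levels were 403, 357, 443 and 419.6 CPM in GFP libraries and 717, 768, 878 and 789.8 CPM in OEIRF7 libraries. Every OEIRF7 library exceeded every GFP library by a wide margin. The log2 fold change was 0.96 (95% interval 0.82 to 1.10, adjusted p = 1.0e-08 by edgeR), and the mean was 1.94-fold higher. An antisense transcript, 8030451A03Rik, overlaps Tnc over 67162 bases in the annotation.

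Spp1 encodes osteopontin, an acidic secreted protein of bone, macrophages and activated fibroblasts that binds αv integrins and CD44. Spp1 (ENSMUSG00000029304, chromosome 5, 104435118 to 104441050, plus strand) had 269, 225, 246 and 220.3 CPM in the GFP libraries and 429, 418, 486 and 439.95 CPM in the OEIRF7 libraries. It was 1.85-fold higher in OEIRF7 libraries, with a log2 fold change of 0.88 (95% interval 0.76 to 1.01, adjusted p = 1.2e-08 by edgeR). Macrophages are a known source of osteopontin, and the 8 macrophage markers examined summed to between 273 and 326 CPM in GFP and between 330.4 and 373 CPM in OEIRF7 libraries. Of these markers Cd68, Adgre1 and Lyz2 were higher, Cx3cr1 was lower and 4, among them Ptprc and Csf1r, did not pass the test (edgeR), and none was at 0. Lyz2, the most abundant of them, had a log2 fold change of 0.22. The part of macrophage RNA in the rise of Spp1 was not tested.

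Postn, Fn1 and Sparc, the 3 most abundant of the 10 genes per length, were lower in OEIRF7 libraries by small but regular amounts. Postn (ENSMUSG00000027750, chromosome 3, 54361109 to 54391037, plus strand) encodes the periostin that marks activated cardiac fibroblasts and aids collagen crosslinking. Its levels were 2672, 2734, 2517 and 2603 CPM in GFP and 2039.85, 2133, 1908 and 1992 CPM in OEIRF7 libraries. The mean was 23.3% lower, with a log2 fold change of -0.38 (95% interval -0.46 to -0.31, adjusted p = 2.8e-07 by edgeR).

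Fn1 (ENSMUSG00000026193, chromosome 1, 71585520 to 71653200, minus strand) took more counts than any other gene of the table, averaged over the 8 libraries. It had 13567, 13469.7, 12662 and 13371 CPM in the GFP libraries and 11935, 12169, 11156 and 12373 CPM in the OEIRF7 libraries. The lowest GFP library and the highest OEIRF7 library differed by less than the replicates of either group did. The mean was 10.2% lower, with a log2 fold change of -0.16 (95% interval -0.22 to -0.09, adjusted p = 0.00057 by edgeR).

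Sparc (ENSMUSG00000018593, chromosome 11, 55394500 to 55423183, minus strand) encodes a collagen-binding protein that takes part in the secretion and assembly of collagen. Its levels were 6505, 6827, 6276 and 6173 CPM in GFP and 6043, 6014, 5842 and 5958 CPM in OEIRF7 libraries. This was the smallest change of the 10, with a mean 7.46% lower and a log2 fold change of -0.11 (95% interval -0.17 to -0.05, adjusted p = 0.0042 by edgeR). On FPKM, limma on log2(FPKM + 1) gave -0.08 with an adjusted p of 0.066. With limma on log2(FPKM + 0.1) it was -0.08 with an adjusted p of 0.0485. On FPKM the call for Sparc thus lay close to the threshold and depended on the added constant.

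Compared per length, the order of the 10 genes was nearly the same in both groups. In the GFP libraries the mean FPKM was 3001 for Sparc, 1686 for Fn1, 861 for Postn, 328 for Thbs1, 168 for Spp1, 120.1 for Thbs2, 56.6 for Tnc, 3.85 for Tnxb, 2.29 for Thbs3 and 0.225 for Thbs4. Among all genes of the table, Sparc ranked 7 and Fn1 ranked 16 by mean FPKM in these libraries. The FPKM ranges of neighbours in this order did not overlap. In OEIRF7 libraries, Thbs2 and Tnc exchanged places, Tnc at 112 ± 8.92 FPKM and Thbs2 at 45.03 ± 4.24 FPKM (SD, n = 4). Spp1 reached 317 ± 19.5 FPKM, below Thbs1 at 459 ± 33.4 FPKM in the same libraries (SD, n = 4). Here too, no neighbours in the order overlapped.

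**Figure D3:**
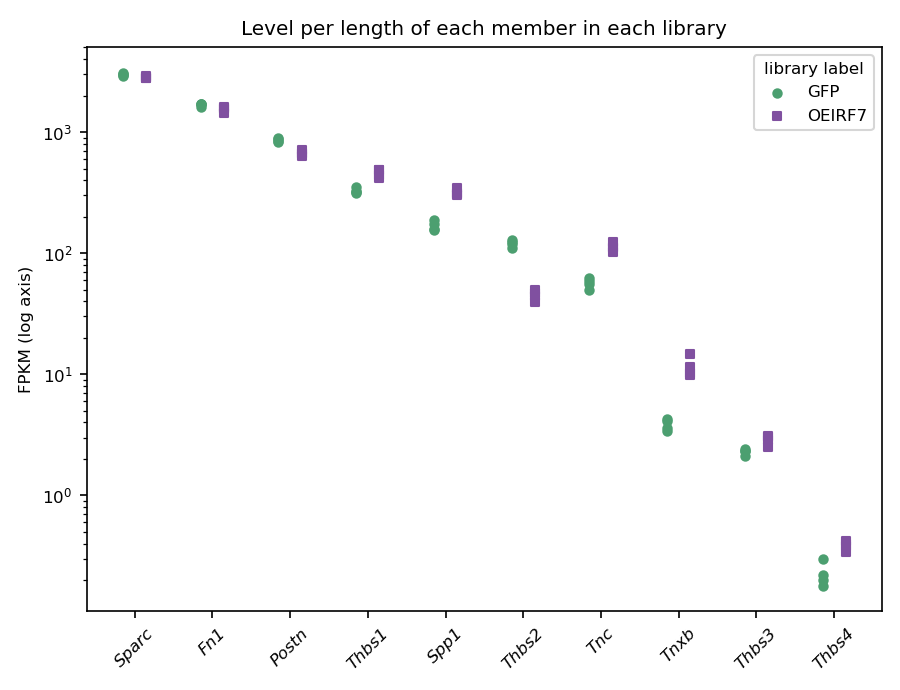
FPKM of each gene in each library on a log axis, ordered by the mean in GFP libraries (green circles, GFP; purple squares, OEIRF7). Sparc, Fn1 and Postn are the 3 highest under both labels, Thbs4 is the lowest, and Tnc stands above Thbs2 only in OEIRF7 libraries.

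The summed share of the 10 genes was not shown to differ. They took between 2.45% and 2.61% of a library's counts in GFP (mean 2.54%) and between 2.32% and 2.50% in OEIRF7 (mean 2.44%), and the groups overlapped. The exact two-sided permutation test of this share gave p = 0.114. The makeup of this share differed between the groups. Thbs1 went from 7.54% to 10.99% of the summed counts of the 10 genes, Tnc from 1.58% to 3.26% and Spp1 from 0.935% to 1.84%, while Postn went from 10.2% to 8.34% and Thbs2 from 2.78% to 1.09%. Fn1 held 51.6% and 49.2% and Sparc 25.1% and 24.7% of them, in GFP and OEIRF7 respectively.

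Whether related genes responded differently was tested on the log2 ratio of their counts within each library, which does not depend on the scaling between libraries, for 5 pairs. The log2 ratio of Thbs1 to Thbs2 rose from between 1.31 and 1.55 in GFP to between 3.22 and 3.46 in OEIRF7 libraries, a difference of 1.90 (standard error 0.075). The ratio of Tnc to Tnxb fell by 0.58 on the log2 scale (standard error 0.11), since Tnxb rose more than Tnc. Both pairs were separated in every library, with p = 0.0286 by the exact two-sided permutation test, the smallest that 4 against 4 libraries allow. For Thbs1 and Thbs2 this separation follows from their CPM, which lay apart in opposite directions, so it adds no separate support. The adjusted p over the 5 pairs was 0.0714, which does not pass 0.05. With no other pair at that smallest p, neither pair could have passed, however large its shift, so the adjusted p does not measure the size of the shift. Postn against its paralog Tgfbi, which encodes a related integrin-binding matrix protein, had overlapping groups and a difference of -0.40 (standard error 0.15, adjusted p = 0.0952 from the exact permutation test). Thbs3 against Thbs4 and Sparc against its paralog Sparcl1 had differences of -0.42 (standard error 0.27) and 0.21 (standard error 0.12), with overlapping groups and an adjusted p of 0.171 for each from the exact permutation test.

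**Figure D4:**
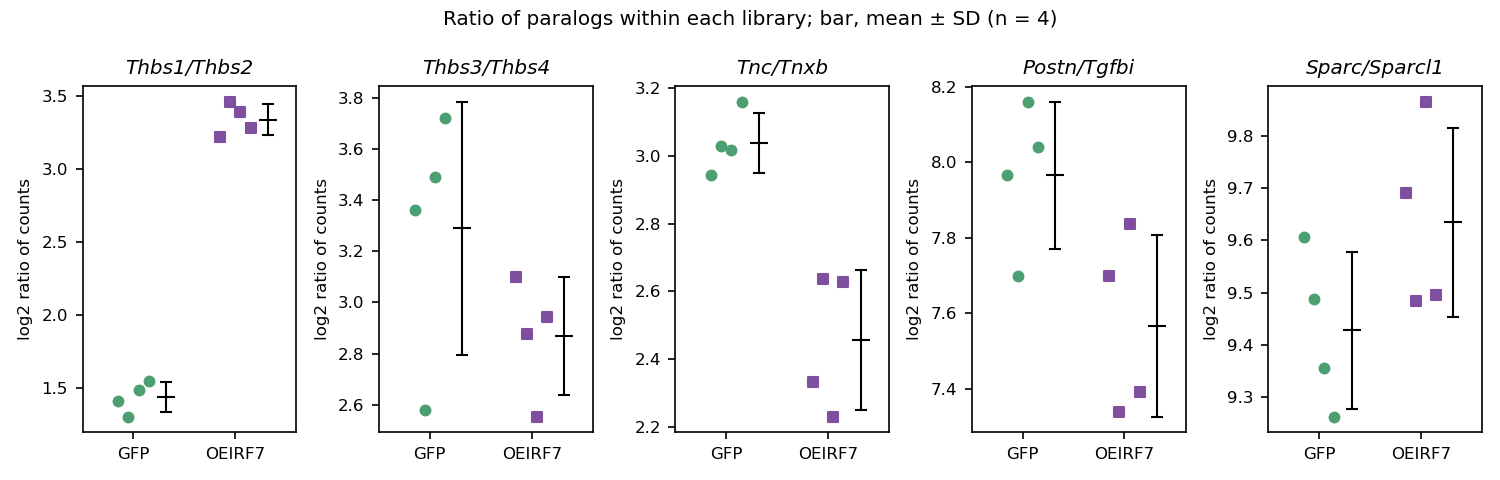
Log2 ratio of the counts of related genes within each library by label, with the mean ± SD beside the points (n = 4); the vertical axes do not start at 0 and differ between panels. Thbs1/Thbs2 and Tnc/Tnxb are separated without overlap, and the groups overlap in the other panels.

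Promoter sequence is shown for the genes with the largest rises, Tnxb, Tnc and Spp1, and for Thbs2, the gene with the largest fall. IRF7, the factor named in the label, binds interferon-stimulated response elements. By the study's account, only a small part of the binding peaks of tagged IRF7 lay in promoters, and sequence further from the genes was not searched here. The 250 bases before the start site were read from RefSeq (GRCm38.p6), 5′ to 3′ on the strand of the gene. Of the 10 genes, 8 had an entry. Searched on both strands were GAAANNGAA, the core of the interferon-stimulated response element, TGANTCA, the AP-1 site bound by Fos and Jun proteins, and TATAAA, the TATA box. The motif matches stand in capitals.

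The Tnxb promoter, chr17:34670285-34670534 on the plus strand, has an AP-1 match from -55 to -49 relative to the start site. Tnc and Spp1 have 2 start sites each in the table, and the upstream window is printed. The upstream Tnc window, chr4:64047016-64047265 on the minus strand, has a match to the response element core from -240 to -232 and a TATA match from -126 to -121. The downstream Tnc window, chr4:64046937-64047186, has a TATA match from -205 to -200 and none to the core. The upstream Spp1 window, chr5:104434861-104435110 on the plus strand, has a match to the core from -156 to -148 and a TATA match from -211 to -206, and the downstream Spp1 window, chr5:104435942-104436191, holds no match to any of the motifs. The Thbs2 promoter, chr17:14694263-14694512 on the minus strand, has a TATA match on the opposite strand from -126 to -121.
Tnxb: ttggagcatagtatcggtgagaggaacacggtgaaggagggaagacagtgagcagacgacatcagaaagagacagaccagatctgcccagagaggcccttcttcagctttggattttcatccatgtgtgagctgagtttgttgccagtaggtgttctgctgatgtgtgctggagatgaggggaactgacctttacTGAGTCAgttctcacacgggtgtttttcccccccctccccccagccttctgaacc
Tnc: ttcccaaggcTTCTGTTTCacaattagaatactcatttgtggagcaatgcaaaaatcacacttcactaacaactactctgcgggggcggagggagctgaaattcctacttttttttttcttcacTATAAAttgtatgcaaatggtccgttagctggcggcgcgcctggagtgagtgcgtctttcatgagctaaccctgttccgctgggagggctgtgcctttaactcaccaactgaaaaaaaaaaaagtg
Spp1: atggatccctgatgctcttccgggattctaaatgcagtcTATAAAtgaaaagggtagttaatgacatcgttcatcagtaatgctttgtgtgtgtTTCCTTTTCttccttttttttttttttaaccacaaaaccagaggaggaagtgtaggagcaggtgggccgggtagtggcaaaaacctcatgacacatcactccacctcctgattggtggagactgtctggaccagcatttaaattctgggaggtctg
Thbs2: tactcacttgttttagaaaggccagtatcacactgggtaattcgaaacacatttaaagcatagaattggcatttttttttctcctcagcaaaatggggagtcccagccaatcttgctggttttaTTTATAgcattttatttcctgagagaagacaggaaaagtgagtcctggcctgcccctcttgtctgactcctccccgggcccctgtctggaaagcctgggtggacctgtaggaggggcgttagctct

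Among all 32851 promoters of the table, 7.13% held the response element core, 6.75% the AP-1 site and 12.4% the TATA box in these 250 bases. A further match to the core lay from -227 to -219 of the upstream start site of Postn, and its downstream start site had a TATA match from -26 to -21. The windows of Sparc, Thbs3 and Thbs4 and the downstream window of Spp1 held none of these letters. Matches are descriptions of sequence and do not show that a factor was bound.

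Receptors of these proteins moved in both directions. Of 17 genes for cell surface receptors that bind 1 or more of the 10 proteins, 10 rose (29.0% of all genes did) and 4 fell (29.9% of all genes did) by the same edgeR test, with a median log2 fold change of 0.21. Itga5, the α chain of the main fibronectin receptor, rose from 288 ± 25.2 to 785 ± 44.1 CPM (n = 4, SD) while Fn1 was slightly lower. Cd44, a receptor of osteopontin and hyaluronan, rose from 253 ± 16.7 to 685 ± 31.7 CPM (n = 4, SD). Itgb3, the partner of αv in the osteopontin receptor, rose by a log2 fold change of 1.68 and Cd36, which binds thrombospondin 1, by 0.79. Among the receptors that were lower, Itgb8 and Itga8 fell by 0.86 and 0.85, Itga4 fell by 0.38 and Itgb5 fell by 0.25 on the log2 scale. Itgav, with a log2 fold change of 0.01, Itgb6 and Cacna2d1 did not pass the test.

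Of 19 related matricellular genes outside the CCN family, 13 were tested, 3 were higher, 5 lower and 5 did not pass (edgeR), close to the 58.9% of all genes that were called (29.0% higher, 29.9% lower), with a median log2 fold change of 0.01. Fstl1, a secreted relative of SPARC, went from 2149 ± 95.6 to 1107 ± 77.3 CPM (n = 4, SD) and fell by 0.96 on the log2 scale. Comp, the fifth thrombospondin and a cartilage protein, fell by 1.20, Smoc1 fell by 0.53 and Sparcl1 fell by 0.31. Lgals3, a galectin, rose by a log2 fold change of 0.87. The other tenascins, Tnr and Tnn, had log2 fold changes of 2.14 and 1.06 but reached at most 62 and 23 counts in any library. The bone relatives of osteopontin, Ibsp, Dmp1, Mepe and Dspp, had at most 8 counts in any library and were not tested.

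Genes of the matrix that these proteins assemble with moved in both directions. Of 13 such genes, 7 were lower, 3 higher and 3 not past the threshold (edgeR), beside 29.9% lower and 29.0% higher among all genes tested, with a median log2 fold change of -0.16. Col5a1, Col3a1 and Col5a2, collagen chains deposited along fibronectin, fell by 0.55, 0.53 and 0.51 on the log2 scale, and Fbln1, a fibronectin-binding fibulin, fell by 0.56. Ltbp1, which anchors latent TGF-β to fibronectin, rose by a log2 fold change of 0.52. Bmp1 and Lox, enzymes of collagen processing and crosslinking, rose by 0.13 and 0.11.

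Of the 8 proteases tested that cut these proteins, 6 were higher and 2 lower (edgeR), beside 29.0% and 29.9% of all genes, with a median log2 fold change of 1.0. Mmp3 rose from 249 ± 7.32 to 512 ± 37.9 CPM and Mmp12 from 20.7 ± 3.02 to 73.1 ± 7.13 CPM (n = 4, SD). Mmp13 and Mmp9 rose from 1.74 ± 0.261 and 0.185 ± 0.136 CPM to 60.1 ± 15.5 and 11.2 ± 2.19 CPM (n = 4, SD), and Mmp9 had at most 10 counts in a GFP library. Adamts1, which cuts thrombospondins, fell by 0.97 on the log2 scale, and Mmp2 fell by 0.10. The call for Mmp2 was not held without scaling beyond library size, without OEIRF7 replicate 3 or on FPKM.

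Genes that TGF-β is known to induce in fibroblasts also moved in both directions. Of 8 such genes, 5 were lower and 3 higher (edgeR), beside 29.9% and 29.0% of all genes, with a median log2 fold change of -0.56. Acta2, the smooth muscle actin of myofibroblasts, went from 2061 ± 74.3 to 581 ± 46.1 CPM (n = 4, SD) and fell by 1.83 on the log2 scale. Cnn1 fell by 1.30, Cthrc1 fell by 1.15 and Tagln fell by 0.98. Smad7, an inhibitor of TGF-β signalling, rose by a log2 fold change of 0.39 and Ltbp2, a latent TGF-β binding protein family member of elastic fibres, by 0.26. Beside a fall of Acta2 by 1.83, Postn fell by 0.38 and Fn1 fell by 0.16 on the same scale.

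**Figure D5:**
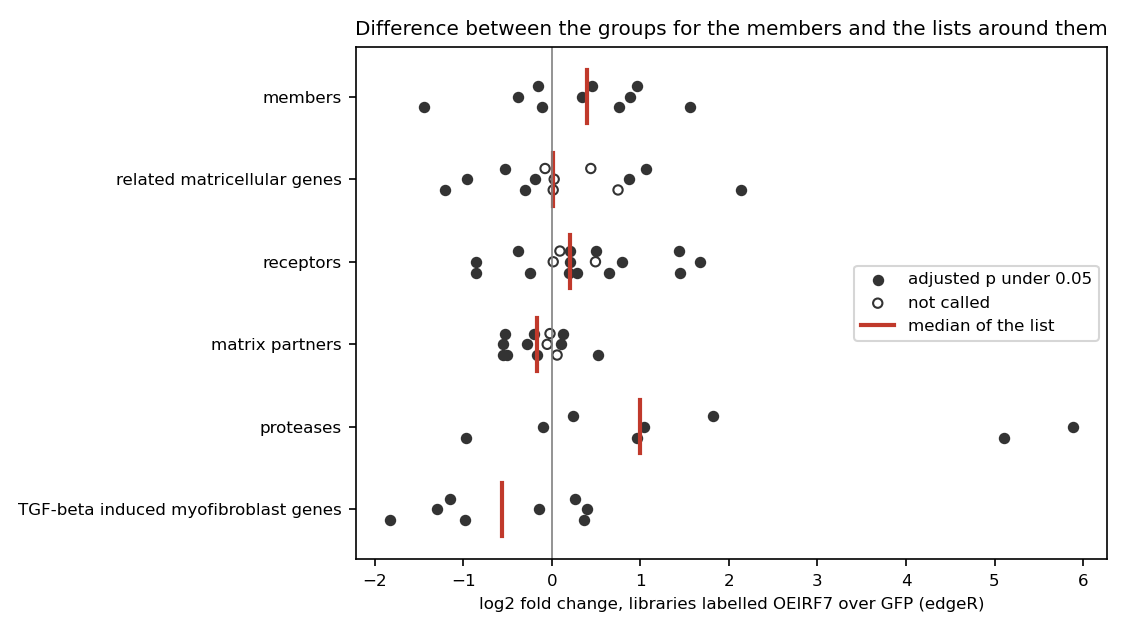
Log2 fold change between libraries labelled OEIRF7 and GFP (edgeR) of each tested gene in 6 lists, filled where the adjusted p was under 0.05; red bars mark list medians. Receptors and proteases lie mostly to the right of 0, matrix partners mostly to the left, and the 10 members on both sides.

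The genes with the profile nearest to that of the largest rise and fall were found over all tested genes, as the root mean square difference of log2 CPM centred on each gene's mean over the 8 libraries. Nearest to Tnxb were Pim1, Ier3 and Slc16a3, at 0.086, 0.087 and 0.097. Nearest to Thbs2 were Calhm5, Abca1 and Prag1, at 0.055, 0.056 and 0.061. These 6 genes had log2 fold changes of 1.52, 1.496 and 1.51 and of -1.52, -1.41 and -1.49 in the order named.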

How the data were processed

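RNA of 8 libraries was measured by RNA-seq. The study's methods name Trimmomatic, HISAT2 on GRCm38, HTSeq-count for the counts and Cufflinks for FPKM, with versions and strand setting not given in the sources used here. The authors deposited raw counts per gene without normalization and FPKM, normalized for length and depth. The deposited mean FPKM, log2 ratio, p-value and FDR belong to the authors' own comparison and were not used.

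In the deposited table the letters nc were replaced by GFP, and 121 symbols were restored by Ensembl identifier; 22219 of 22274 identifiers matched the GENCODE M21 names, which gave coordinates. Counts were fitted in R 4.3.3 with edgeR 4.0.16 (filterByExpr, TMM, glmQLFit, glmQLFTest) over all genes that passed, GFP against OEIRF7, with Benjamini-Hochberg adjustment over 13533 genes. The prior count was 2 for log2 CPM and 0.5 for ratios of paralogs. Standard errors and intervals came from the quasi-likelihood F statistic. Exact permutation tests were two-sided (SciPy 1.17.1). The scripts were tested on simulated data.

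Alternatives were DESeq2 1.42.0, other scalings and filters, a block for the replicate number, each library left out in turn and limma 3.58.1 on log2(FPKM + 1) or log2(FPKM + 0.1). Genes with a mean up to 0.1 FPKM were left out of the latter. All replicates of a group differed beyond sampling noise (chi-square over degrees of freedom 2.91 to 9.94). The largest values, 7.06, 9.94 and 9.36, were those of OEIRF7 replicate 3 against OEIRF7 replicates 1, 2 and 4. The pairs among those replicates had 2.91 to 4.55. Genes under about 1 CPM rest on few counts.

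The genes, lists and motifs were chosen with earlier results of these data known. Named are all 10 members, the targeted gene, the paralogs, up to 4 called genes in each direction per list with the largest changes, and 3 nearest profiles for the largest rise and fall. A gene that this rule would name is not reported here. Mtx1, 8030451A03Rik, the markers of cell types and genes given as untested or not called were named after their values were seen.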

Additional observations from a re-analysis of the deposited data

Results flagged for a closer look

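In the libraries labelled GFP, replicate 2 stood apart for Thbs3 on log2 CPM. Its gap to the nearest other library was 0.854 of the range of the group, above Dixon's 95% critical value for 4 samples. It had 5.85 CPM, beside 7.46 to 7.78 CPM in the other GFP libraries. Without it the log2 fold change of Thbs3 was 0.25 with an adjusted p of 0.038 (edgeR), against 0.34 and 0.012 with it. Of 32 groups of values examined in this way 1 was flagged, where chance flags about 1 in 20.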

How the results depend on the processing

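No alternative turned the direction of any of the 10 genes, of a paralog ratio or of the summed share. Of 492 comparisons with an alternative, 484 were rated the same. For an estimate this meant the same direction and side of the threshold. For a number of genes called it meant only a number within 1.5-fold of the main one. Leaving out 1 library at a time gave log2 fold changes of Thbs4 from 0.65 to 0.92 and numbers of lower proteases from 1 to 2. With limma on log2(FPKM + 1), Sparc had -0.084 (adjusted p = 0.066), and 435 genes in all, against 1158, were past a log2 fold change of 1, a scale that understates the change of low genes. Of the lower proteases 1 was left with no scaling beyond library size and with limma on log2(FPKM + 1) or log2(FPKM + 0.1). With at least 10 counts in every library, 1 related matricellular gene was higher, since Tnr and Tnn were then not tested. Without OEIRF7 replicate 3 the difference in summed share was -0.061 percentage points, against -0.103.

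Same-numbered libraries correlated between 0.079 and 0.138 in their deviations from the group means, each best with its own number, which is a hint and not a stated pairing. With the replicate number as a block, 4057 genes were higher and 4154 lower, against 3924 and 4045, and all 10 genes were still called. Values for Thbs4, Tnr and Tnn are limited by depth.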
